A study of Mus musculus with 6 samples.

Results

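A set of 10 genes commonly used to mark myeloid cells was followed in 6 cultures of mouse helper T cells: Mpeg1, Clec7a, Itgam, Ctss, Lyz2, Csf1r, Cd68, Tyrobp, Fcer1g and Ly6g. They were chosen by name, with earlier results of these data known. All 10 were found among the 38483 genes of the deposited table, with 23 transcripts between them. All 10 passed the filter on low counts that left 15121 genes to test. The cultures began as splenic cells selected for CD4 and CD62L from B10.RIII mice. There were 3 cultures from IL-17A+/+ wild-type and 3 from IL-17A-/- knockout animals. Both genotypes received the same polarization toward the Th17 state for 3 days, with IL-6 at 10 ng/ml, IL-23 at 10 ng/ml and TGF-β at 1 ng/ml, while IFN-γ and IL-4 were each blocked by an antibody at 10 µg/ml. The mice, not the T cells alone, carried the genotype, so any other cell left in a culture shared it.

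Myeloid cells are the macrophages, monocytes, dendritic cells and granulocytes of the innate immune system. Many of their surface receptors carry no signalling tail of their own and rely on small adaptors, DAP12 (Tyrobp) and the Fc receptor gamma chain (Fcer1g), whose tyrosines recruit the kinase SYK. Their lysosomes hold hydrolases such as lysozyme and cathepsin S and the pore-forming protein perforin-2. In spleen such cells lie beside the T cells, and several of these genes are also read out in other lymphocytes: Tyrobp and Fcer1g in NK cells, Ctss in B cells.

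Library totals ran from 47335736 to 49743762 estimated counts. Il17a was at 160.6, 211.1 and 107.8 CPM (counts scaled to a common library size, with TMM scaling) in wild-type 1, 2 and 3. In knockout 1, 2 and 3 it was at 1.11, 0 and 0.0288 CPM, so the libraries match their genotype labels. The T cell gene Cd3g was at 544 to 1092 CPM and Cd4 at 246 to 634 CPM over the 6 libraries. Cd8a, a gene of CD8 T cells, was at 33.7 to 425 CPM. In knockout 1 it was at 425 CPM, above Cd4 at 246 CPM. The libraries group by replicate number. The B cell list, summed, was highest in the number 1 libraries, with sums of 258 (wild-type 1) and 572 CPM (knockout 1), and the neutrophil list in the number 2 libraries, at 434 and 744 CPM. Xist, made from the inactive X chromosome of female cells, was at 567 to 664 CPM in all wild-type cultures, at 2.58 and 0 CPM in knockout 1 and 2, and at 627 CPM in knockout 3. The part of sex in the differences of pairs 1 and 2 was not tested. Below, pair 1 means knockout 1 with wild-type 1, and so on.

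All 10 myeloid genes were detected in every culture, and their levels differed by replicate number. Within pairs, Mpeg1, Clec7a, Itgam and Ctss were higher in every knockout culture and Ly6g was lower in every one. Of the 10 genes, 8 were highest in a number 2 library, Mpeg1 in a number 1 library and Ly6g in a number 3 library, and 9 were lowest in a number 3 library. The CPM ranges of the genotypes overlapped for all 10. Among all tested genes only 6.13% had ranges that did not overlap, so this does not set the members apart. In the knockout, 6 genes were higher than in the wild-type in all 3 pairs, against 16.6% of all tested genes, and Ly6g was lower in all 3 pairs, against 16.7%. No member passed edgeR's quasi-likelihood test without the replicate number (0% of all genes called; 0 members, and 1.67% of all genes, at an unadjusted p under 0.05). With the replicate number as a block edgeR again called 0% of all genes, and 7 of the 10 members were at an unadjusted p under 0.05, against 9.73% of all genes. DESeq2 with the same block called 5 of the 10, against 2.52% of all genes: Mpeg1, Clec7a, Itgam and Ctss higher (1.02% of all genes called higher) and Ly6g lower (1.5% called lower). DESeq2 without the block called none of them (0.086% of all genes called). Because the members were chosen with earlier results known, their counts beside these shares are not a test of the set. Il17a, the gene deleted in the knockout, was not called by edgeR without the block (log2 change -8.696, adjusted p 0.9999). EdgeR with the block missed it too (-8.921, adjusted p 0.2174). DESeq2 called Il17a without the block (adjusted p 0.008548) and with it (4.436e-06). A gene that edgeR did not call here is therefore not shown to be unchanged. Rose and fell below refer to the DESeq2 fit with the block. The 10 members had a median log2 change of 0.49 without the block, beside 0.01 over all tested genes. In bulk RNA, fewer cells of a type and less RNA per cell cannot be told apart.

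**Figure D1:**
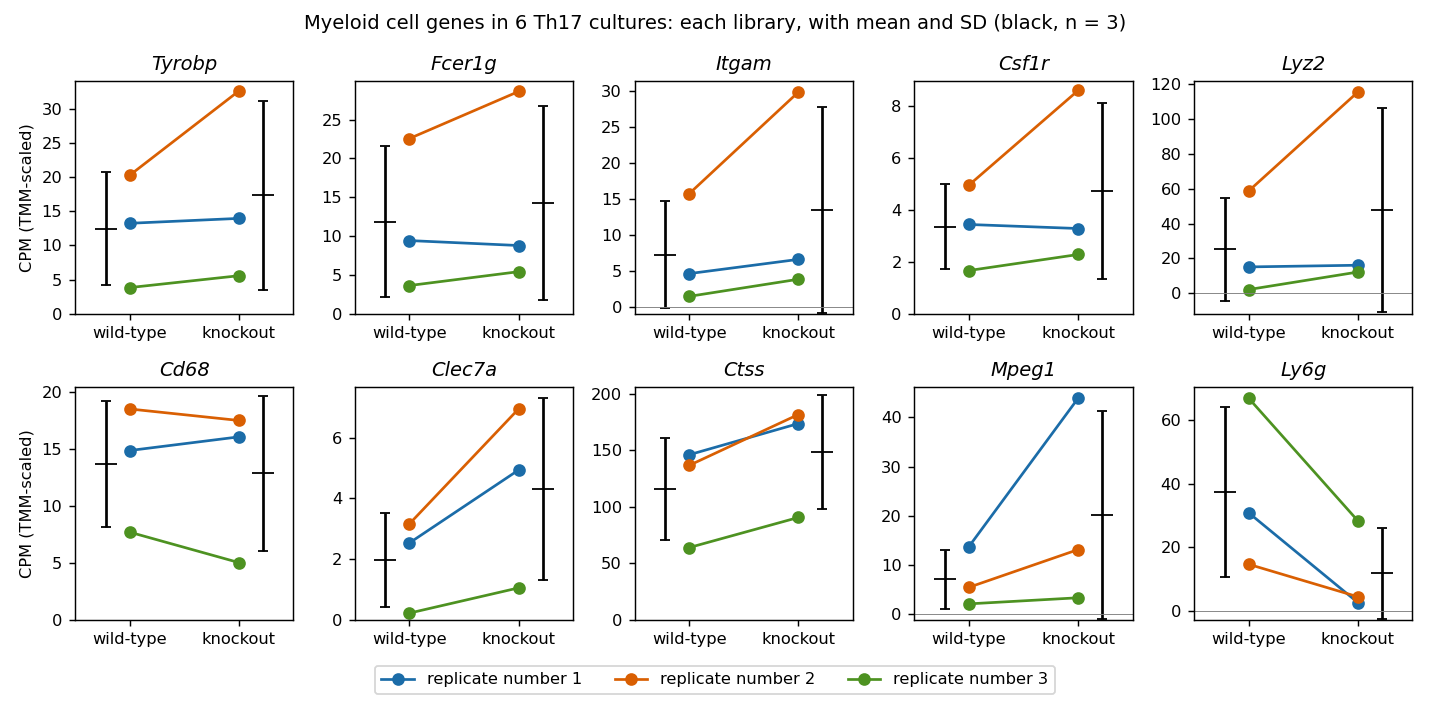
Level of each of the 10 genes in each library (y axis, CPM on a linear scale; x axis, genotype). Coloured points are libraries joined within a replicate number, and black bars are the mean and SD of 3 libraries. Ly6g slopes down in all 3 pairs, from 66.9 to 28.3 CPM in pair 3, while Mpeg1, Clec7a, Itgam and Ctss slope up in all 3.

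**Figure D2:**
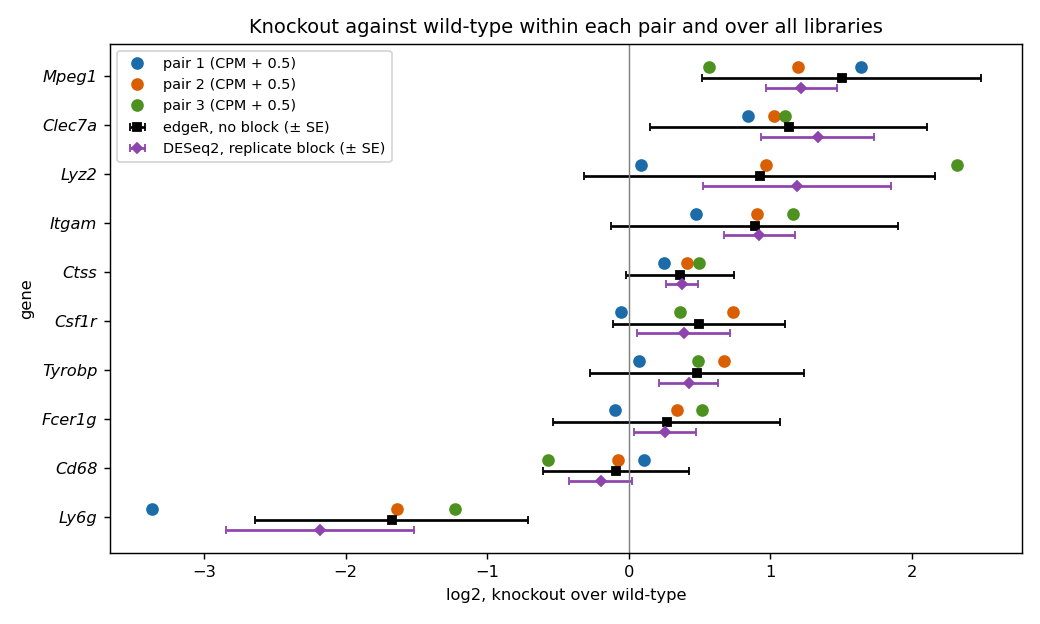
Log2 ratio of knockout over wild-type (x axis) for each gene (y axis). Circles are single pairs on CPM + 0.5, squares the edgeR estimate without the block and diamonds the DESeq2 estimate with it, each with its SE. Ly6g stands to the left of 0 in every pair, at -3.37, -1.64 and -1.23, and the 4 genes that rose stand to the right in every pair.

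The DNA just before the start sites of the 5 genes that DESeq2 called with the block is shown for reading beside the values. The sequences are RefSeq's, build GRCm38.p6, which is the C57BL/6J genome and not B10.RIII. Each line runs 5′ to 3′ on the gene's strand and ends before the first base of any transcript annotated for the gene, with 250 bases shown and 229 for Ly6g. Capitals mark GAGGAA, a short form of the site of the myeloid transcription factor PU.1, or its reverse complement TTCCTC, and in Ly6g the longer GAGGAAGT that contains it.
Clec7a, chr6:129472786-129473035, minus strand: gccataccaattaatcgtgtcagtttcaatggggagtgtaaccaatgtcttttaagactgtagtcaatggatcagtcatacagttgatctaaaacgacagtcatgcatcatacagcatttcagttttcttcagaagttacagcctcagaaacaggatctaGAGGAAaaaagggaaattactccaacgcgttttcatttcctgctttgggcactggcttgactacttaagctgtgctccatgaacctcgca
Itgam, chr7:128062390-128062639, plus strand: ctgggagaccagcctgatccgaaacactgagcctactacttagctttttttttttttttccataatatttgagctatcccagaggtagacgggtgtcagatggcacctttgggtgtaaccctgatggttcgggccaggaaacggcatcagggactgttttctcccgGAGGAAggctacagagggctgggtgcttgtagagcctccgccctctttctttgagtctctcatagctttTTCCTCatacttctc
Ctss, chr3:95526536-95526785, plus strand: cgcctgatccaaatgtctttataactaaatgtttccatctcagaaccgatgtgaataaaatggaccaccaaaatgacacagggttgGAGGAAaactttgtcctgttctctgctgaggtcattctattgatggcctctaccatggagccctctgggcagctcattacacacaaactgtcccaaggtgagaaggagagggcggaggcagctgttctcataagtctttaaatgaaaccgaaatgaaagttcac
Mpeg1, chr19:12460520-12460769, plus strand: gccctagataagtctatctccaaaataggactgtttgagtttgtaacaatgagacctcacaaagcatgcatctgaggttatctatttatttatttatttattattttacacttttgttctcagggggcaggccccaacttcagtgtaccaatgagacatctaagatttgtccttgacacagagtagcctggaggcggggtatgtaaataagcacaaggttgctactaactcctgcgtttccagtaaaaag
Ly6g, chr15:75155011-75155239, plus strand: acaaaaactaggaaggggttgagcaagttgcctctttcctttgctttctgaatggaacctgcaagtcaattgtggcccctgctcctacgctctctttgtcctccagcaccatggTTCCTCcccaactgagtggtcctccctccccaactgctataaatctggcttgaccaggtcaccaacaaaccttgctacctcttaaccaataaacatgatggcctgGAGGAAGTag
Windows before the RefSeq start site were searched for 8 of the 10 genes. Tyrobp had no window in the RefSeq table, and Csf1r was left out of the search. GAGGAA on either strand lay within 250 bases before the start in 5 of these 8, in Clec7a, Itgam, Ctss, Cd68 and Ly6g, against 23.1% of 27025 gene promoters. The longer GAGGAAGT lay in 1 of the 8, Ly6g, against 2.44% of promoters. Mpeg1, Lyz2 and Fcer1g have neither in this window. These are matches of letters and not measured binding. Spi1, the gene of PU.1, was at 2.40, 4.07 and 1.099 CPM in wild-type 1, 2 and 3 and at 4.27, 7.18 and 1.34 CPM in knockout 1, 2 and 3, and did not pass (log2 change 0.65, SE 0.34, adjusted p 0.467 in DESeq2 with the block).

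Among the receptors, Clec7a and Itgam rose and Csf1r did not pass. Clec7a (ENSMUSG00000079293, chromosome 6, 129461591 to 129472777 on GRCm38, minus strand) encodes dectin-1, the receptor for fungal β-glucan. It was at 2.53, 3.16 and 0.221 CPM in wild-type 1, 2 and 3, and at 4.94, 6.95 and 1.05 CPM in knockout 1, 2 and 3. Each knockout lay above its own pair partner, by log2 ratios of 0.84, 1.02 and 1.105, but knockout 3 lay below wild-type 1 and 2. The group levels were 1.97 ± 1.55 CPM across the wild-type and 4.31 ± 3.00 CPM in knockout cultures (SD, n = 3 each). The edgeR log2 change was 1.13 (SE 0.98, adjusted p 0.9999), and that of DESeq2 with the block 1.33 (SE 0.40, adjusted p 0.0367). This call was lost when any 1 pair was left out, with DESeq2 adjusted p values of 0.291 to 0.812.

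Itgam (ENSMUSG00000030786, chromosome 7, 128062640 to 128128160, plus strand) encodes CD11b, the integrin alpha chain of complement receptor 3. It was at 4.60, 15.7 and 1.43 CPM in wild-type 1, 2 and 3, and at 6.59, 29.9 and 3.82 CPM in knockout 1, 2 and 3. The number 2 libraries were the highest of both genotypes. The group levels were 7.26 ± 7.52 CPM across the wild-type and 13.4 ± 14.3 CPM in knockout cultures. The edgeR log2 change was 0.89 (SE 1.01, adjusted p 0.9999), and without knockout 2 it turned to -0.50. DESeq2 with the block gave 0.92 (SE 0.25, adjusted p 0.0150), and 0.631 and 0.652 as adjusted p without pair 2 and without pair 3.

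In the estimated counts, the rise of Itgam in pair 1 lay in 1 transcript. Itgam-007, which starts 8019 bases after the RefSeq start site shown above, held 2.67 estimated counts in wild-type 1 and 217.9 in knockout 1. It made up 1.19% of all Itgam counts in wild-type 1 and 64.7% in knockout 1, and 62.4% and 66.3% in wild-type 2 and knockout 2. In pair 3 it made up 24.6% and 5.60%. Without Itgam-007, Itgam was at 4.55, 5.92 and 1.08 CPM across wild-type 1, 2 and 3, and at 2.33, 10.1 and 3.60 CPM across the knockouts. In pair 1 the knockout was then the lower library, with log2 ratios of -0.84, 0.72 and 1.38 in pairs 1, 2 and 3. The DESeq2 change with the block became 0.51 (SE 0.50, adjusted p 0.863), so the call was lost. Itgam-007 lies within the span of Itgam-004 and ends at the same base, 128118490, so reads may be divided between them. Leaving out Itgam-007 may thus also drop reads of other Itgam transcripts, and how the reads were divided was not tested. Itgam-007 is the only one of the 23 transcripts that is not in GENCODE release M21, a later annotation of the same genome build. Itgam-004 and Itgam-201, the next most abundant, were at 0.482 to 5.33 CPM, and both were lower in knockout 1 than in wild-type 1. In M21, 72.4% of the 50-base words of Itgam-004 also occur in the gene model Gm49368, so the split of reads at this locus depends on the annotation.

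Csf1r (ENSMUSG00000024621, chromosome 18, 61105572 to 61132149, plus strand) encodes the receptor for CSF1 and IL-34, on which macrophages depend. It was at 3.43, 4.95 and 1.66 CPM across wild-type 1, 2 and 3, and at 3.28, 8.60 and 2.28 CPM across the knockouts. Pair 1 did not share the direction of pairs 2 and 3, with log2 ratios of -0.06, 0.74 and 0.36. The DESeq2 change with the block was 0.39 (SE 0.33, adjusted p 0.816). The shorter transcript Csf1r-001 appeared only in the number 2 libraries above 0.001 CPM, 1.64 (wild-type 2) and 3.83 CPM (knockout 2), or 33.1% and 44.5% of the gene. Csf1r-201 alone was at 3.43, 3.31 and 1.66 CPM against 3.28, 4.77 and 2.28 CPM. The gene's span also meets that of Hmgxb3 on the opposite strand.

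The ligands and partners of these receptors came from a list of 10 genes, of which 7 were tested, 5 higher and 2 lower in the knockout without the block. A single one of them, Syk, rose in DESeq2 with the block, against 1.02% of all tested genes called higher. Syk, the kinase that docks on both adaptors and on dectin-1 and is also central to B cell receptor signalling, was at 47.96, 26.5 and 12.5 CPM across wild-type 1, 2 and 3, and at 89.9, 48.8 and 13.9 CPM across the knockouts. Its change was 0.64 (SE 0.19, adjusted p 0.0390), lost without pair 1 (0.714) or pair 2 (0.465). Syk and the summed B cell list were both highest in knockout 1 and lowest in wild-type 3. The part of B cells in the Syk difference was not tested. Csf1, the ligand of CSF1R, was at 7.68, 7.51 and 2.37 CPM against 15.3, 9.13 and 5.95 CPM, higher in all 3 pairs, and missed the threshold (adjusted p 0.0847). Il34, the other ligand, was at 0.109 CPM or less in every library. Itgb2, the beta chain that pairs with CD11b and also with the integrin chain of T cells, was at 499 to 666 CPM and did not pass (adjusted p 0.466). Itgax, the CD11c chain, was at 3.88 to 29.2 CPM and Card9, the adaptor below dectin-1, at 0.736 to 3.90 CPM. Cebpa, a transcription factor gene of granulocyte and monocyte precursors, reached 0.657 (wild-type 2) and 1.08 CPM (knockout 2) and was at 0.181 CPM or less elsewhere.

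Neither signalling adaptor passed. Tyrobp (ENSMUSG00000030579, chromosome 7, 30413788 to 30417577, plus strand) was at 13.2, 20.3 and 3.82 CPM across wild-type 1, 2 and 3, and at 13.96, 32.6 and 5.56 CPM across the knockouts. It was higher in the knockout in all 3 pairs, by log2 ratios of 0.07, 0.67 and 0.49, and the DESeq2 change with the block was 0.42 (SE 0.21, adjusted p 0.426). Fcer1g (ENSMUSG00000058715, chromosome 1, 171229572 to 171234365, minus strand) was at 9.41, 22.6 and 3.62 CPM against 8.78, 28.6 and 5.41 CPM. Its pair 1 ratio was -0.10 and its DESeq2 change 0.26 (SE 0.22, adjusted p 0.811). Both genes were highest in the number 2 libraries and lowest in the number 3 libraries of each genotype. Without knockout 2 the edgeR change turned to -0.38 for Tyrobp and to -0.76 for Fcer1g. Hcst, the neighbouring gene of the adaptor DAP10, which T and NK cells use, was at 28.5 to 47.2 CPM and did not pass (adjusted p 0.967).

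Of the genes of lysosomes and killing of microbes, Mpeg1 and Ctss rose and Lyz2 and Cd68 did not pass. Mpeg1 (ENSMUSG00000046805, chromosome 19, 12460779 to 12465284, plus strand) encodes perforin-2, which opens pores in engulfed bacteria. It was at 13.7, 5.45 and 2.09 CPM in wild-type 1, 2 and 3, and at 43.9, 13.1 and 3.33 CPM in knockout 1, 2 and 3. Each knockout was higher than its partner, by 3.20-fold, 2.41-fold and 1.59-fold, and the number 1 libraries were the highest of both genotypes. The group levels were 7.09 ± 5.99 CPM across the wild-type and 20.1 ± 21.2 CPM in knockout cultures. The edgeR log2 change was 1.502 (SE 0.98, adjusted p 0.9999) and was 0.21 without knockout 1. DESeq2 with the block gave 1.22 (SE 0.25, adjusted p 2.30e-04), and an adjusted p of 0.460 without pair 1. The summed B cell list had the same order of the 3 pairs and of both genotypes within them, at 258, 95.5 and 73.3 CPM across the wild-type and 572, 244 and 81.8 CPM across the knockouts. The part of B cells in the Mpeg1 difference was not tested.

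Ctss (ENSMUSG00000038642, chromosome 3, 95526786 to 95556403, plus strand) encodes cathepsin S, the protease that trims the invariant chain from MHC class II. Per transcript length it had the highest mean level of the 10. It was at 146, 137 and 63.9 CPM across the wild-type and 174, 182 and 90.5 CPM across the knockouts. The log2 ratios of the 3 pairs were close together, with values of 0.25, 0.41 and 0.50. DESeq2 with the block gave 0.38 (SE 0.12, adjusted p 0.0431), and the call was lost without any 1 pair (adjusted p 0.196 to 1). The edgeR change was 0.36 (SE 0.38, adjusted p 0.9999). Its 2 transcripts of 1355 nt, Ctss-001 and Ctss-201, were both higher in the knockout in all 3 pairs, with Ctss-201 holding 76.1% to 86.6% of the counts. The pseudogene Hmgb1-ps5 lies inside the Ctss span on the same strand, with a mean of 8.04 estimated counts.

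Lyz2 (ENSMUSG00000069516, chromosome 10, 117277334 to 117282274, minus strand), the lysozyme gene of macrophages and granulocytes, varied most of the 10 between libraries, 57.0-fold from lowest to highest. It was at 15.0, 58.7 and 2.03 CPM across wild-type 1, 2 and 3, and at 16.01, 115.6 and 12.1 CPM across the knockouts. The log2 ratios were 0.09, 0.97 and 2.32, all in the same direction but unlike in size, and the DESeq2 change with the block was 1.19 (SE 0.66, adjusted p 0.542). Without knockout 2 the edgeR change of 0.92 turned to -0.87. In GENCODE M21, 15.4% of the 50-base words of the Lyz2 transcript also occur in other genes. The gene that shares the most words is its neighbour Lyz1, which was listed at 0 in all 6 libraries. Reads with shared words could be split between genes, so the Lyz2 level is uncertain to that extent.

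Cd68 (ENSMUSG00000018774, chromosome 11, 69664213 to 69666153, minus strand), a lysosomal membrane glycoprotein of macrophages, had the smallest change of the 10 without the block. It was at 14.9, 18.5 and 7.70 CPM across the wild-type and 16.1, 17.5 and 5.03 CPM across the knockouts, or 13.7 ± 5.51 and 12.9 ± 6.83 CPM as group levels. The log2 ratios were 0.11, -0.08 and -0.57 and the DESeq2 change -0.20 (SE 0.22, adjusted p 0.887). Its transcript Cd68-002, annotated as a processed transcript without a coding sequence, held 21.5% of the counts in wild-type 1 and 29.4% in knockout 2 and 5.35% or less in the other libraries.

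**Figure D3:**
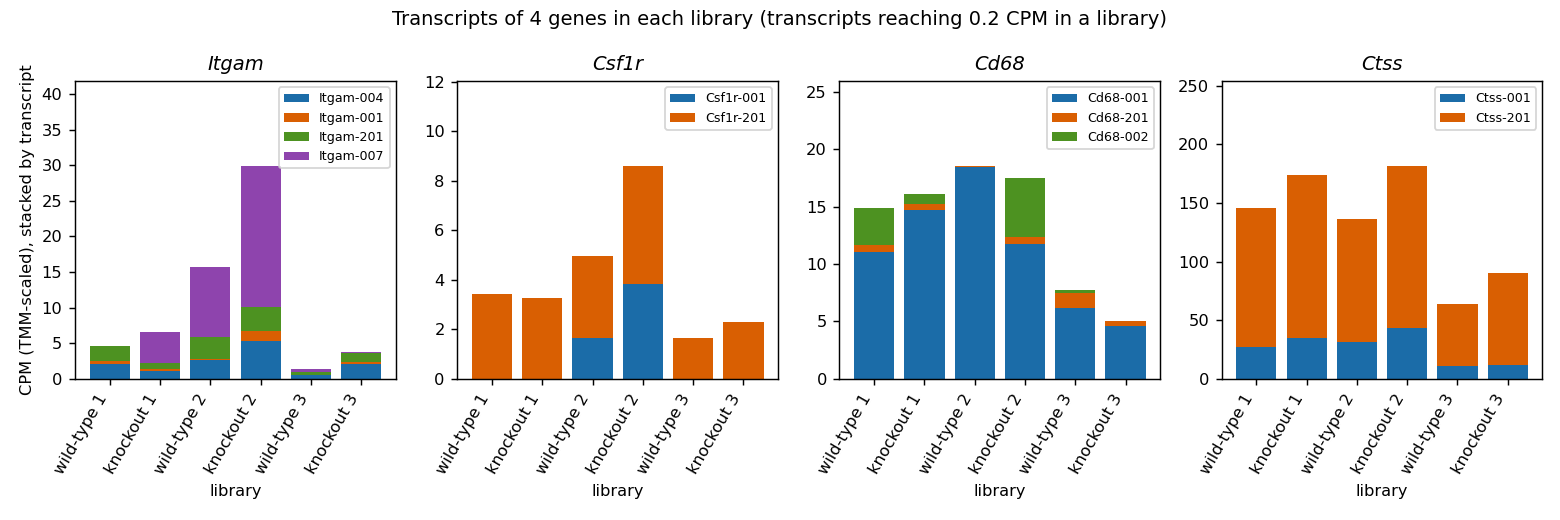
Level of Itgam, Csf1r, Cd68 and Ctss in each library (y axis, CPM, starting at 0), stacked by transcript, for transcripts that reach 0.2 CPM in any library (x axis, libraries by replicate number). Itgam-007 makes up 64.7% of Itgam in knockout 1 and 1.19% in wild-type 1, and Csf1r-001 shows only in the number 2 libraries.

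Ly6g was the one member that fell. It encodes a GPI-anchored surface protein that marks mouse neutrophils (ENSMUSG00000022582, chromosome 15, 75156693 to 75158739, plus strand). It was at 30.8, 14.6 and 66.9 CPM in wild-type 1, 2 and 3, and at 2.53, 4.35 and 28.3 CPM in knockout 1, 2 and 3. Each knockout was below its partner, and the highest library was wild-type 3, where 8 of the other genes were at their lowest. The group levels were 37.5 ± 26.8 CPM across the wild-type and 11.7 ± 14.4 CPM in knockout cultures. The edgeR log2 change was -1.68 (SE 0.97, adjusted p 0.9999). DESeq2 with the block gave -2.18 (SE 0.66, adjusted p 0.0414), and an adjusted p of 4.31e-07 without pair 1, 0.329 without pair 2 and 4.48e-07 without pair 3. At the level of transcripts, with none summed, DESeq2 with the block called 2 of the 16 member transcripts tested, against 1.13% of 36508 transcripts. These were Mpeg1-201 (adjusted p 0.0170) and Ly6g-201 (adjusted p 0.00593).

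The 2 most abundant tested genes of the neutrophil list, S100a8 and S100a9, did not share the order of Ly6g. S100a8, a calcium-binding protein abundant in neutrophils, was at 4.48, 162 and 9.83 CPM across wild-type 1, 2 and 3, and at 0.790, 278 and 18.5 CPM across the knockouts. S100a9, its partner, was at 4.90, 243 and 11.6 CPM against 0.463, 373 and 20.5 CPM. Both were lowest in knockout 1 and highest in knockout 2, whereas Ly6g was at its lowest levels in both of these libraries. Of the 12 neutrophil genes 7 were tested, 5 higher and 2 lower in the knockout without the block, and none passed edgeR without the block or DESeq2 with it. Their median log2 change was 0.61 without the block and -0.16 in DESeq2 with it, so the direction of the list depends on the fit. The 2 lower genes were Csf3r and Cxcr2. Cxcr2 had log2 ratios of 0.17, -1.12 and -1.11 in pairs 1, 2 and 3. In the knockout it was thus lower in pairs 2 and 3 only, whereas Ly6g was lower in all 3 pairs. S100a8 and S100a9 were lower in the knockout in pair 1 only. The secondary granule genes Ngp, Camp and Ltf were at 55.6, 4.78 and 14.6 CPM in knockout 2, at 8.89, 0.756 and 1.48 CPM in wild-type 2 and at 0.460 CPM or less in the other 4 libraries. Lyz2, Itgam, Tyrobp and Fcer1g were also at their highest in knockout 2, and the part of neutrophils in those values was not tested.

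The Ly6g values rest on a short gene model. The deposited table holds a single Ly6g transcript of 336 nt, which starts 1432 bases after the upstream RefSeq start site, and GENCODE M21 has a longer model with further exons. Only 0.7% of the 50-base words of this model occur in another gene, yet its letters are 81.8% identical over 336 nt to Ly6a and 77.1% to both Ly6c1 and Ly6c2, its neighbours on chromosome 15. Ly6a was at 673 to 1312 CPM and did not pass (DESeq2 change with the block 0.11, SE 0.12, adjusted p 0.886). Ly6c1 fell, from 229, 207 and 131 CPM to 149, 139 and 101 CPM (change -0.53, SE 0.11, adjusted p 4.46e-04). Ly6c2 fell from 79.4, 60.8 and 38.4 CPM to 69.2, 37.9 and 25.7 CPM (-0.50, SE 0.15, adjusted p 0.0427). Both are genes of T cells and monocytes, and within each genotype both were highest in the number 1 library, where Ly6g was highest in the number 3 library. Ly6f, at 0.0780 to 1.33 CPM, was highest in wild-type 3 and next in knockout 3. These neighbours were chosen after the Ly6g values were seen, and the part of reads from related genes in the Ly6g counts was not tested.

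Other myeloid genes came from lists chosen with earlier results of these data known. Of 24 macrophage and monocyte genes 23 were found and 15 tested, 14 higher and 1 lower in the knockout without the block. Their median log2 change was 0.70, beside 0.01 over all genes. In DESeq2 with the block 2 of the 15 rose and none fell, against 1.02% of all tested genes called higher and 1.5% called lower. Cybb, the catalytic chain of the phagocyte NADPH oxidase, rose from 15.0, 6.21 and 2.96 CPM to 32.3, 23.1 and 6.74 CPM. Its change was 1.39 (SE 0.24, adjusted p 1.88e-06), and it passed without pair 1, 2 or 3 (0.00149, 0.00644 and 7.93e-04). Fcgr2b, the inhibitory Fc receptor gene, rose from 25.5, 15.7 and 4.40 CPM to 39.6, 29.5 and 8.17 CPM (0.80, SE 0.17, adjusted p 3.49e-04). That call was lost without pair 1, 2 or 3 (0.0786, 0.123 and 0.169). Both genes are also expressed by B cells, whose summed markers were higher in every knockout than in its partner, and the part of B cells in these differences was not tested. Cd14, the lipopolysaccharide co-receptor, was at 6.08, 6.80 and 0.792 CPM against 8.96, 12.6 and 4.02 CPM and missed the threshold (adjusted p 0.0533). Ccr2, the chemokine receptor of monocytes, was at 8.10 to 27.8 CPM and lower in the knockout in pair 1 only. Defining genes of resident macrophages were near or at 0: Marco and Vsig4 at 0 in all libraries, C1qa, C1qb and C1qc at 0.379 CPM or less, and Adgre1, the F4/80 gene, at 0.821 CPM or less. A count of 0 allows up to 0.0676 CPM.

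The 10 members summed to 254, 301 and 153 CPM over wild-type 1, 2 and 3, and to 290, 439 and 157 CPM over the knockouts. Of 8 dendritic cell genes 5 were tested and none passed. Cd209a was at 0 in all libraries and Siglech at 0.003 CPM or less. Batf3, which activated T cells also express, was at 49.9 to 80.9 CPM, and Flt3 at 8.57 to 17.7 CPM. Genes of mast cells, basophils and eosinophils summed to 24.9 and 25.8 CPM in wild-type 2 and knockout 2 and to 2.36 CPM or less elsewhere, and none of the 3 tested passed. Among those tested, Cpa3, a mast cell and basophil protease, was at 5.54 and 6.44 CPM in the number 2 libraries, and Prg2, an eosinophil granule gene, at 4.08 and 7.25 CPM.

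Of 10 cathepsin and lysosome genes that most cells use, 1 rose in DESeq2 with the block and none fell, with a median log2 change of 0.02 without the block. The riser was Ctsh, cathepsin H, from 16.97, 12.9 and 4.71 CPM to 34.9, 24.1 and 6.58 CPM (0.81, SE 0.20, adjusted p 0.00332). Its call was lost without pair 1 or pair 2. Ctsd and Ctsb, the genes of cathepsins D and B, were at 229 to 414 CPM and 261 to 331 CPM. Of 10 B cell genes 5 rose and none fell, of 8 NK cell genes 2 rose, Klrd1 and Klrk1, and of 6 CD8 T cell genes 2 rose, Cd8a and Klrc1. None of the other NK cell genes was called, and Ncr1 among them was at 0.0894 to 0.277 CPM. Klrd1 and Klrk1 were highest in knockout 1, as were Cd8a and Klrc1. The part of CD8 T cells in the Klrd1 and Klrk1 differences was not tested. Of the 8 T cell identity genes, Cd2 and Cd5 fell and none rose. In the same fit 1.02% of all tested genes rose and 1.5% fell. Among the risers of the B cell list were Ms4a1, Cd22, Blk and Fcrla. Fcrla, an Fc receptor-like gene of B cells, was at 22.5, 5.35 and 3.03 CPM against 52.7, 21.8 and 6.04 CPM, and its largest levels were in the number 1 libraries, as for Mpeg1.

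**Figure D4:**
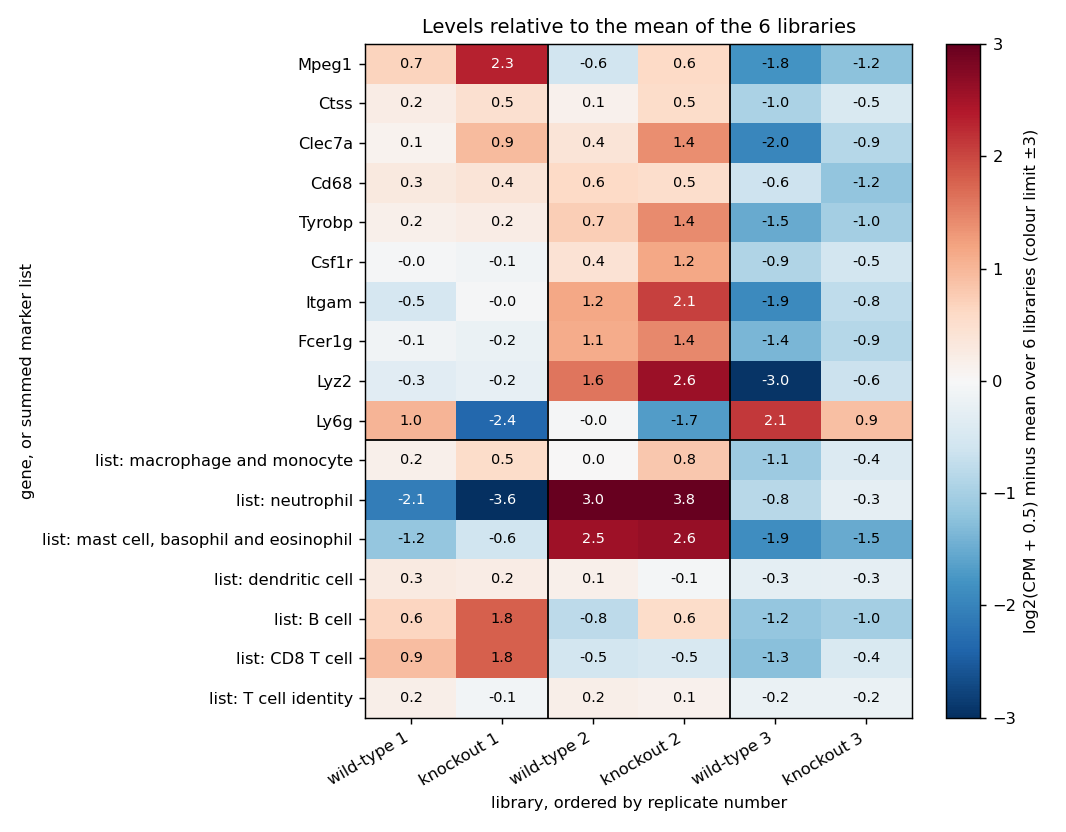
Level of each member and of each summed marker list in each library relative to its mean over the 6 libraries (colour and printed value, log2 of CPM + 0.5, colour limited to ±3; x axis, libraries by replicate number; y axis, genes above the line and lists below it). Lyz2, Itgam, Fcer1g and the neutrophil list are highest in the number 2 libraries, Mpeg1 and the B cell list in the number 1 libraries, and Ly6g in wild-type 3.

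Divided by transcript length, as TPM (estimated counts per length, scaled to a common sum), the order of the members' levels was led by Ctss. Means over the 6 libraries were 90.1 ± 32.6 for Ctss, 68.8 ± 69.8 for Ly6g, 26.2 ± 31.8 for Lyz2, 24.2 ± 17.2 for Tyrobp, 17.7 ± 13.6 for Fcer1g and 11.2 ± 5.04 for Cd68 (SD, n = 6 libraries). Mpeg1 followed at 2.97 ± 3.53, Itgam at 2.13 ± 2.27, Clec7a at 1.28 ± 1.04 and Csf1r at 0.826 ± 0.556. Neighbours in this order differed by less than the larger of their SDs, apart from Cd68 and Mpeg1. The place of Ly6g depends on the short length of its model.

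Genes outside all lists were ranked by Pearson r with the members' mean log2(CPM + 0.5), over 6 libraries and 12621 genes. The 5 most alike were 4930486L24Rik (0.993), Ptgr1 (0.992), Anapc13 (0.991), Stk38 (0.988) and Hk3 (0.987). Hk3, a hexokinase gene of myeloid cells, was at 1.27, 2.76 and 0.303 CPM across the wild-type and 1.70, 3.93 and 0.610 CPM across the knockouts. Most like Mpeg1 were Myo1e (0.999) and Themis2 (0.997), like Clec7a Dnajc30 (0.995) and 4930503L19Rik (0.992), and like Itgam Tnfaip2 (0.993) and Fam20c (0.991). Ctss was nearest to Lpcat2 (0.996) and Mkrn1 (0.994), and Ly6g to Zfp647 (0.992) and Prss41 (0.982). So few libraries, which share replicate numbers, give high values by choice among many genes, so these name likeness and nothing more.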

How the data were processed

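Stranded mRNA libraries of 6 cultures were sequenced, per the labels' protocols. The authors deposited an estimated count per transcript and library, 93480 transcripts of 38483 genes, per the file headers, with each transcript's length. The submitters' processing notes list Bowtie2 2.1.0, eXpress 1.3.1 and the GRCm38 build; which annotation release and settings went with them is not given in the sources used here.

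Estimated counts were summed per gene and rounded. The main test was edgeR 4.0.16's quasi-likelihood test (R 4.3.3, TMM, filterByExpr at its defaults) with Benjamini-Hochberg adjustment over 15121 genes and a threshold of 0.05. Alternatives were edgeR, DESeq2 1.42.0 and limma-voom (limma 3.58.1) with and without the replicate number as a block, other scalings and filters, transcripts not summed, and each library or pair left out. The edgeR, DESeq2 and limma-voom fits of all 6 libraries, with and without the block, were tested on simulated counts per gene. The other alternatives were not. Leaving out Itgam-007, paired edgeR without single pairs and paired DESeq2 on transcripts were chosen after seeing the data. CPM values are counts scaled to a common library size with TMM, and pair ratios add 0.5 CPM. The SE given for edgeR was worked back from its test, as the absolute log2 change divided by the square root of the F statistic. That of DESeq2 is the one the tool reports. Floors cover counting error only, whereas SDs and SEs also hold the spread between libraries.

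The labels do not say what a replicate number marks. Deviations from the group mean correlated across genes at 0.602, 0.447 and 0.641 for the 3 same-numbered wild-type and knockout libraries, and at -0.174 to -0.465 for all others, so same-numbered libraries were treated as pairs. Chi-square per degree of freedom between libraries was 56.4 or more, so none was a repeat of another. The labels call the samples biological replicates but do not name animals, so p-values measure the spread between these cultures.

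The members and lists were chosen with earlier results of these data known. All 10 members are named, and of each other list the partners and ligands, the 2 most abundant tested genes, those called and defining genes at 0, plus the 5 genes most like the members' mean and the 2 most like each called member. Shared 50-base words were counted in GENCODE M21 transcripts, and identity to Ly6g was taken from blastn. One gene that this rule would name is not reported here. Ly6 neighbours and a few further genes were named after their values were seen. Symbols were matched to gene IDs through the reference table, and 1 list gene was not found. Sequences are RefSeq's on GRCm38.p6.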

Additional observations from a re-analysis of the deposited data

How the results depend on the processing

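The count of genes called was 0 in edgeR without the block and moved to 13 in DESeq2, to 381 in DESeq2 with the replicate block and to 411 transcripts when that fit was not summed over genes. Without pair 1, 2 or 3, DESeq2 with the replicate block called 176, 264 and 149 genes. Leaving out a pair gave 0 to 8 in edgeR with the block, 8 being without pair 1, and leaving out a library gave 0 to 1 in edgeR, 1 being without knockout 1. Of the 10 members, 0 were called in edgeR under every scaling, filter and library left out, and also in limma-voom with and without the block. DESeq2 with the replicate block called 5, 2 with transcripts not summed, and 2, 1 and 2 without pair 1, 2 or 3. Log2 changes turned in edgeR without knockout 2 for Itgam (-0.50), Lyz2 (-0.87), Csf1r (-0.29), Tyrobp (-0.38) and Fcer1g (-0.76), without wild-type 3 for Fcer1g (-0.17), and for Cd68 without wild-type 2 (0.19), without knockout 3 (0.27) and in DESeq2 with the replicate block without pair 3 (0.006). The cause was not tested. Fits without a pair have 1 residual degree of freedom. Mpeg1, Clec7a, Ctss and Ly6g kept their direction in all 23 alternatives. With single libraries left out, the edgeR changes ran from 0.21 to 2.41 for Mpeg1, 0.57 to 1.65 for Clec7a, 0.06 to 0.60 for Ctss and -3.47 to -0.96 for Ly6g. With a pseudocount of 0.1 CPM, 29 of the 30 pair ratios moved by less than the spread between pairs; Clec7a in pair 3 moved to 1.84. Wild-type 3 held only 11 estimated counts of Clec7a, so its ratio there is the least precise.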
